A study of Mus musculus with 16 samples.

Results

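The keratin genes were taken as all protein-coding genes of the annotation with a symbol of Krt and a number, which left out the keratin-associated proteins (Krtap). A peak was assigned to a keratin when the transcription start site nearest to its centre, among protein-coding genes, was that of the keratin. This gave 104 peaks for 53 genes, of 80367 peaks listed as more or less accessible in GFPhigh than in GFPneg small cell lung cancer (SCLC) cells of the mouse and of 21951 protein-coding genes. The rule did not use the direction of a peak. Assignment by distance does not show that a peak acts on the gene, and the peaks of a gene are not replicates.

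Keratins are the intermediate filament proteins of epithelial cells. A type I (acidic) and a type II (basic) keratin pair to form each filament, and the pair that a cell makes marks its kind of epithelium: Krt8 with Krt18 in simple epithelium, Krt5 with Krt14 in the basal layer of stratified epithelium, Krt1 with Krt10 in the suprabasal epidermis. In the mouse the type I genes lie in a cluster on chromosome 11 and the type II genes in a cluster on chromosome 15, where Krt18 stands at the end as a type I gene beside Krt8. In the lung, Krt8, Krt18, Krt7 and Krt19 are known from airway and alveolar epithelium and Krt5 and Krt14 from airway basal cells.

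Accessible chromatin at these genes was measured by ATAC-seq, in which the Tn5 transposase inserts sequencing adaptors where DNA is open. The SCLC cells came from TKO;Hes1 GFP/+ mice, which carry floxed (fl/fl) alleles of Rb, of p53 and of p130. An adenovirus that expresses Cre from the CMV promoter, given through the trachea, deleted these genes in lung cells, and GFP is made from the endogenous Hes1 locus. Both groups carry the deletions and the reporter. GFPhigh cells (labelled Hes1-GFP positive) are the non-neuroendocrine (non-NE) cells and GFPneg cells (labelled negative) the neuroendocrine (NE) cells, sorted from the pooled tumors of each mouse. The labels give 4 libraries a group from 3 mice, with 2 of the 4 pairs from 1 mouse, and each library was run on 2 lanes, for 16 runs. The age of the mice at sorting is not given in the labels. The deposited lists hold only the peaks past the authors' limits, here called opened (more accessible in GFPhigh cells) and closed (less accessible in GFPhigh cells), each with its position and its mean normalized reads over all libraries. No value per library was used, so the depth and the spread between the mice are unknown, no test was made, and the intervals of shares (Wilson, 95%) cover counting error only. In sorted populations, more cells with an open site and a more open site in each cell cannot be told apart.

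The listed peaks at keratin genes were mostly opened in GFPhigh cells. Of the 104, 89 were opened and 15 closed, an opened share of 85.6% (77.6 to 91.1%), where 50.8% of all listed peaks were opened. The other listed peaks within 2 Mb of the clusters were opened in 92.0% on chromosome 11 and 88.6% on chromosome 15, where the keratins had 97.7% and 77.0%. By mean reads over both groups, 4 of the 6 highest keratin peaks were assigned to the simple epithelial keratins Krt18, Krt19, Krt7 and Krt8, and the others to Krt78 and Krt42. No keratin gene had a closed peak within 1 kb of a start, where 8.64% of all protein-coding genes had one, and 10 had an opened peak there (18.9%, against 28.7% of all). Within 3 kb, 2 keratin genes had a closed peak. Of the basal keratins, Krt14 had no listed peak and Krt5 had 1 opened and 2 closed peaks.

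The sequences of 6 opened and 2 closed peaks or promoters are shown because they include 2 of the 3 keratin peaks with the most reads, opened promoters, co-occurring motif strings, the closed peak nearest to a keratin start and the closed peak with the most reads. Promoters are the 250 bases before the RefSeq start (GRCm38.p6) on the gene's strand, and peaks are the central 200 bases on the + strand of mm10. Capitals mark exact matches, on either strand, to 10 short motifs: CATTCC (TEAD), TGANTCA (AP-1), TGTTTAC (FOX), CAAGTG (NKX2), AACCNGTT (GRHL), CCNCACCC (KLF), TGGGAA (RBPJ), TTGCNNAA (CEBP), GCCNNNGGC (TFAP2) and TGGC with GCCA after any 5 bases (NFI). Strings can overlap, such as CATTCC with the complement of TGGGAA. A match is a description of the letters and not a bound site.

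The strongest keratin peak lay between Krt8 and Krt18 (chr15:102016870-102017069, opened), with a TEAD string that runs into an RBPJ string and a further RBPJ string.
Krt8-Krt18 intergenic peak: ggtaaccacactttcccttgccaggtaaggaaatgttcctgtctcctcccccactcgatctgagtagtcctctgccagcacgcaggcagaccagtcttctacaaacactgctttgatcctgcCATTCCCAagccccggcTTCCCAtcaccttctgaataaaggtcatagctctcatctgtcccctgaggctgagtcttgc
Its neighbour on the Krt8 side (chr15:102016216-102016415, opened) held 2 TEAD, 2 AP-1 and 1 TFAP2 match.
Krt8 far upstream peak: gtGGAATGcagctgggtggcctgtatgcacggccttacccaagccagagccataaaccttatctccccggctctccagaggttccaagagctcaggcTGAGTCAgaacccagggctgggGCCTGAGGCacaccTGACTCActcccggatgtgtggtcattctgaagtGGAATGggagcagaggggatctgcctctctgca
The strongest peak between Krt78 and Krt8 (chr15:101977338-101977537, opened) held an AP-1 string toward the end of the printed stretch.
Krt78-Krt8 intergenic peak: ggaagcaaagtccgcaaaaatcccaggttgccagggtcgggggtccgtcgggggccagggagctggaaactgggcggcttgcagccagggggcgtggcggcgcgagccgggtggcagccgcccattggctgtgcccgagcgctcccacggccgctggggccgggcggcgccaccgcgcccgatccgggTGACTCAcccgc
A peak upstream of Krt19 (chr11:100168220-100168419, opened) was the only keratin peak with 5 of the 10 families, and its AP-1, TEAD and KLF strings overlap. It was chosen after its matches were seen.
Krt19 upstream peak: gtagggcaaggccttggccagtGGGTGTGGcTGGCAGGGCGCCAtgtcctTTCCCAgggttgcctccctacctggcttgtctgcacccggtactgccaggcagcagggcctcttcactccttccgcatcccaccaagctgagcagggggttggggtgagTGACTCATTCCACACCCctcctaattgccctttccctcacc
The Krt7 promoter (chr15:101412153-101412402, + strand) lay almost wholly in an opened peak, with a pair of TFAP2 strings, 1 of them inside an NFI string.
Krt7 promoter: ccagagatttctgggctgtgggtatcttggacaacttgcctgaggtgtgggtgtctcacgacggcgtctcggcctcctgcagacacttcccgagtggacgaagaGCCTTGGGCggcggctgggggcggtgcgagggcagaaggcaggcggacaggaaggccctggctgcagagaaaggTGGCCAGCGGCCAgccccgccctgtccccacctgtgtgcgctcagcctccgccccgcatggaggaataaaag
The Krt23 promoter (chr11:99493121-99493370, − strand) lay in an opened peak, with a CEBP string.
Krt23 promoter: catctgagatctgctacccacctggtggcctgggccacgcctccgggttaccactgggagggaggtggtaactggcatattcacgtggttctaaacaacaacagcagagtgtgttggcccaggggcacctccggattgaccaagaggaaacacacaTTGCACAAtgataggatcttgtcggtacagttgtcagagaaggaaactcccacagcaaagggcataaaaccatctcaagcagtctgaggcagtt
The closed peak just upstream of Krt8 (chr15:102005515-102005714) held an AP-1 string.
Krt8 closed upstream peak: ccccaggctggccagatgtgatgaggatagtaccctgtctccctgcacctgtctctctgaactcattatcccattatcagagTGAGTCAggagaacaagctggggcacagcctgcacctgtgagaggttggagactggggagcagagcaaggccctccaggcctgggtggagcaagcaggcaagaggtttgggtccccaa
The closed peak in the Krt7 gene body (chr15:101414971-101415170) held a CEBP and a KLF string.
Krt7 closed intron peak: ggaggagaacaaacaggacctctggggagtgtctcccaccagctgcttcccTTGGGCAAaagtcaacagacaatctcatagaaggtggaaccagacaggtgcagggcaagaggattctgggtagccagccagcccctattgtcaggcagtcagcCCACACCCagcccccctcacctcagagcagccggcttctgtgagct

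The peaks were spread unevenly over the genes. Of the 53 keratin genes, 32 had a listed peak (60.4%), where 66.5% of all protein-coding genes had one. Opened peaks alone were found at 24 genes, both kinds at 6, and closed peaks alone at Krt87, a hair shaft keratin, and Krt75, a keratin of the hair follicle's companion layer. The median was 1 peak a gene (interquartile range 0 to 2), and the 6 genes with the most peaks (Krt80, Krt8, Krt19, Krt23, Krt7 and Krt78) held 55 of the 104. Krt80, an epithelial keratin at the end of the chromosome 15 cluster, had 14 peaks, of which 9 were opened and 5 closed. Krt8 had 9 opened and 2 closed peaks, Krt19 10 opened and no closed, and Krt7 5 opened and 2 closed. Krt23, a type I keratin outside the classical pairs, had 7 opened peaks and Krt78 6, with no closed peak at either.

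**Figure D1:**
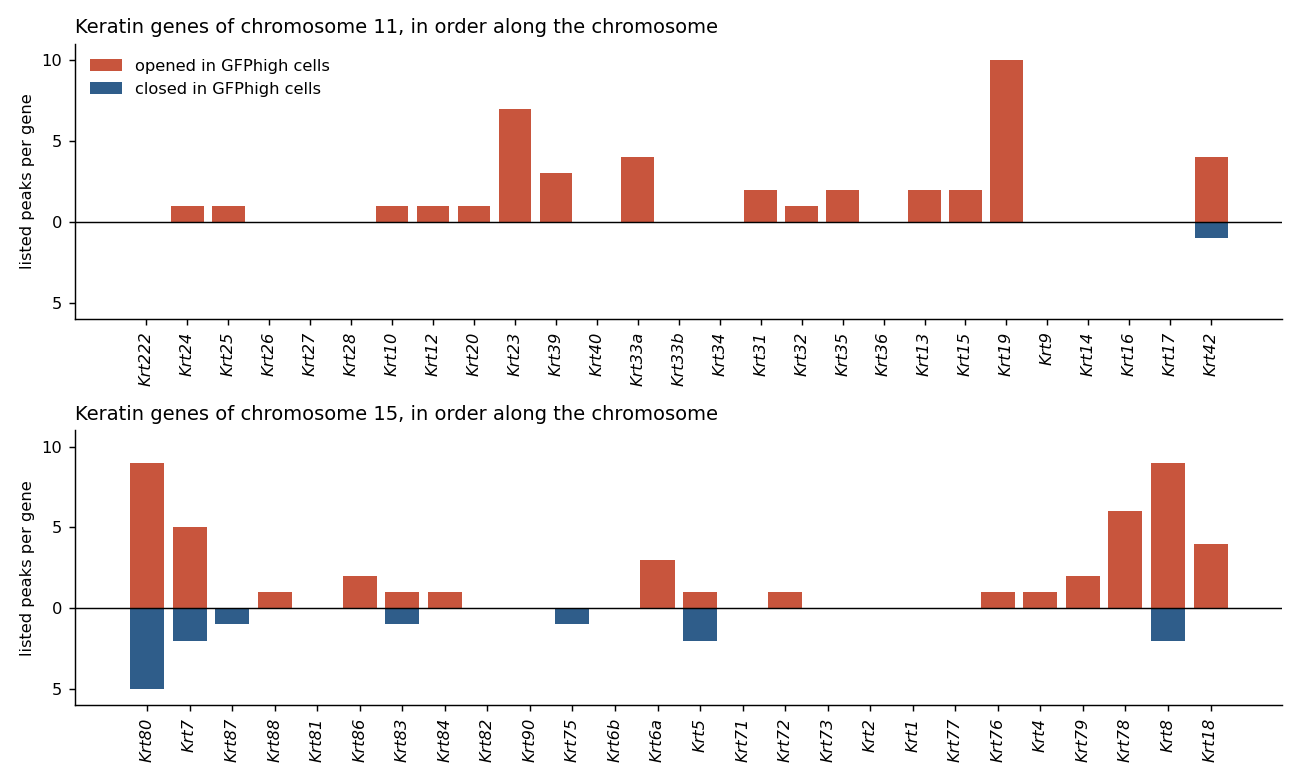
Listed peaks per keratin gene, drawn upward for peaks opened and downward for peaks closed in GFPhigh cells, with the genes in order along chromosome 11 (upper panel) and chromosome 15 (lower panel). Opened peaks stand out at Krt19 (10), Krt80 and Krt8 (9 each) and Krt23 (7), and all closed peaks but the 1 at Krt42 lie on chromosome 15.

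An opened promoter peak, within 1 kb of an annotated start, was found at 10 keratin genes (18.9%), where 28.7% of all protein-coding genes had one. These were Krt7, Krt8, Krt18 and Krt19 of simple epithelium, Krt10 of the suprabasal epidermis, Krt33a, Krt83 and Krt86 of the hair shaft, and Krt23 and Krt80. No keratin gene had a closed promoter peak at that distance. Within 3 kb of a start, Krt7 and Krt8 had a closed peak, as did 13.3% of all genes. The peaks within 1 kb of a keratin start were opened in 14 of 14 cases (78.5 to 100%), against 74.3% of all listed peaks at that distance from a start. The mean reads of a promoter peak, over both groups, are a sum over its width, so they are given per 100 bp as well. The peak over the start of Krt19 (chr11:100145763-100146482) had a mean of 403 reads, that over Krt7 (chr15:101412162-101412605) 261 and that over Krt8 (chr15:102004200-102004585) 245. Per 100 bp these were 55.9 (Krt19), 58.9 (Krt7) and 63.4 reads (Krt8), so their order depends on the scale. Peaks at the promoters of Krt10 and Krt23 had 134 and 90.8 reads, or 28.6 and 20.6 per 100 bp, and that of Krt10 lay at the start of a shorter transcript inside the gene. Krt80 had 3 promoter peaks, with 171, 166 and 29.3 reads. Those at the hair keratins Krt83 (21.4 reads), Krt33a (15.7) and Krt86 (14.97) had the lowest values per 100 bp, 6.11 to 8.93 reads. A further promoter peak of Krt7, 433 bp upstream, had 16.0 reads, or 21.9 per 100 bp. One of Krt19, 898 bp inside the gene, had 138 reads, or 30.2 per 100 bp. At Krt18 no listed peak covered the start itself, and its promoter peak lay 849 bp inside the gene with 41.3 reads, or 34.2 per 100 bp.

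All 5 simple epithelial keratins had a listed peak, where 66.5% of all protein-coding genes had one. Together they held 33 peaks, 29 of them opened (87.9%, 72.7 to 95.2%, against 50.8% of all listed peaks), with a median of 69.8 reads. An opened promoter was found at 4 of the 5, against 28.7% of all protein-coding genes. The exception was Krt20, known from intestinal and bladder epithelium, whose single opened peak had 18.9 reads and lay 26865 bp upstream. Of the 25 opened keratin peaks with at least 100 reads, 13 were assigned to simple keratins. The 71 peaks of the other keratins were opened in 84.5% (74.3 to 91.1%), with a median of 35.8 reads.

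Krt19, the smallest keratin of simple epithelium, had only opened peaks. Its start is that of the basic annotation, and a non-coding transcript of the gene begins farther upstream. Besides the start peak (403 reads), 1 lay 898 bp inside the gene with 138 reads. The other 8 were upstream, in a group from 6551 to 7859 bp (11.7, 61.3 and 22.9 reads), 1 at 11927 bp (107 reads) and a group from 20720 to 23076 bp. The last group held 4 peaks, of which that at 22199 bp had 161 reads and the others 58.4, 16.0 and 70.3. All 10 had the same direction although their reads differed by over an order of magnitude.

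Krt7, a keratin of ducts and airway epithelium, changed in both directions along the gene. Distances are from the start of its transcript in the basic annotation, and longer or non-coding transcripts of the full annotation begin farther upstream, under the peak at 1410 bp. Its start peak (261 reads) and a peak 1410 bp upstream (218 reads) were opened, as were weaker peaks 433 bp upstream (16.0), 13942 bp upstream (49.9) and 12696 bp inside the gene (69.8). The closed peak 2668 bp inside the gene had 128 reads, the highest of the 15 closed keratin peaks and above 94.1% of all closed peaks. A closed peak of 96.2 reads nearest to Krt87 also lay in an intron of Krt7, and a weak one (16.5 reads) lay 7017 bp upstream. These 3 closed peaks were picked for description with their values known.

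The Krt8 and Krt18 genes are divergent, and their starts are 23698 bp apart. Peaks assigned to Krt78, Krt8 and Krt18 formed a run of 21 over 76.6 kb (chr15:101952472-102029089), or 34.4% of the keratin peaks of chromosome 15, with 19 opened and 2 closed. The highest of all keratin peaks lay between Krt8 and Krt18 (chr15:102016657-102017282, 569 reads), above 98.3% of all opened peaks by reads. It was 11211 bp upstream of Krt18 and 12487 bp upstream of Krt8, so its assignment to Krt18 rests on a small difference in distance. The neighbouring opened peak (168 reads) was assigned to Krt8. Between Krt78 and Krt8 lay 6 opened peaks, with 323, 195, 176, 176, 97.7 and 31.4 reads, and that of 323 (chr15:101977163-101977711) ranked above 93.6% of all opened peaks.

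Around the Krt8 start the direction alternated over short distances. The start peak was opened (245 reads), as were peaks 1110 and 1348 bp inside the gene (108 and 48.7 reads) and 2090 and 2676 bp upstream of the start (65.7 and 111 reads). Between them, a peak 1132 bp upstream was closed, with 108 reads, above 92.0% of all closed peaks. It lay 642 bp from the nearest opened peak. The second closed peak, 9867 bp past the start and beyond the end of the gene, had 69.0 reads. Both closed peaks were picked for description with their values known.

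**Figure D2:**
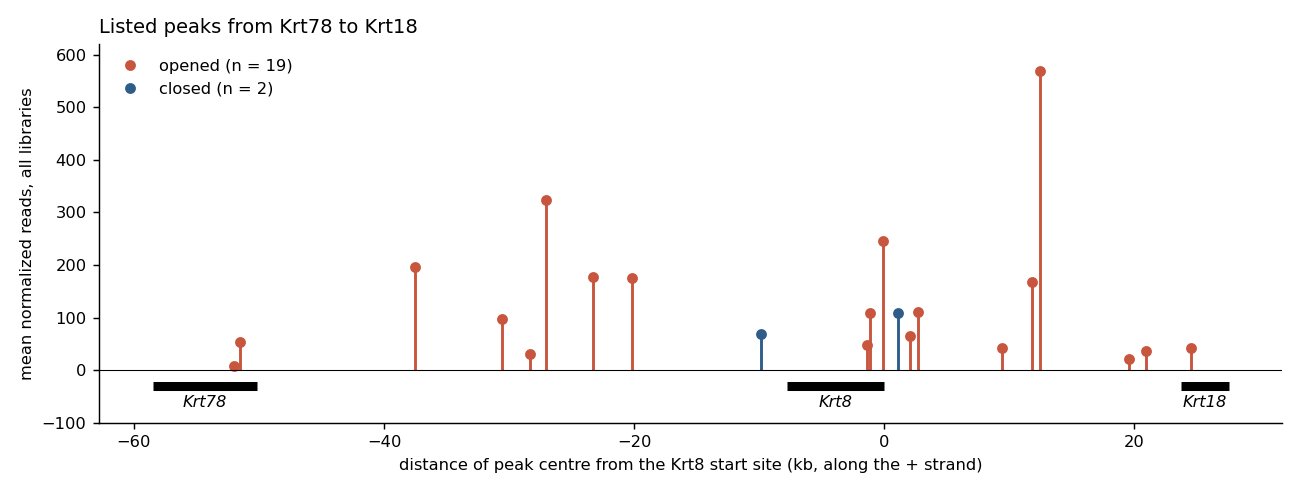
The 21 listed peaks assigned to Krt78, Krt8 and Krt18, with the distance of each peak's centre from the Krt8 start (kb) on the horizontal axis and its mean normalized reads over all libraries as the height of the line. Black bars mark the genes, 19 opened peaks include the tallest (569 reads) and the 2 closed peaks (108 and 69.0 reads) lie on either side of the Krt8 start.

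Of the 7 basal and activated keratins, Krt5, Krt15 and Krt6a had a listed peak (42.9%, against 66.5% of all genes). Krt14, Krt16, Krt17 and Krt6b had none. None of the 7 had a promoter peak, where 28.7% of all genes had an opened and 8.64% a closed one. Their 8 peaks (6 opened, 2 closed) had a median of 18.7 reads and a highest value of 44.5. Krt5, the type II keratin of basal cells, had closed peaks 8165 and 8499 bp upstream (20.8 and 10.7 reads) and an opened peak 12018 bp upstream (38.4 reads). Krt15, a keratin of basal cells and hair follicle stem cells, had a pair of opened peaks 3057 and 3565 bp upstream (9.61 and 44.5 reads), nearer to its start than to that of Krt19. Krt6a, induced in activated epidermis, had 3 opened peaks of 12.1 to 29.4 reads. A gene with no listed peak may have accessible sites that did not pass the limits.

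The keratins of differentiated stratified epithelium had 6 peaks, all opened, at 5 of 8 genes (62.5%, against 66.5% of all genes with a listed peak). Krt13, of mucosal epithelium, had 1 of 156 reads 7944 bp past its start, beyond the end of the gene, and 1 of 45.8 reads in an intron, and its partner Krt4 had 1 of 59.8 reads in an exon of the neighbouring Krt79. Krt10 had its promoter peak, Krt12 of the cornea a peak of 18.3 reads and Krt76 of the palate a peak of 36.1 reads. Krt1, Krt2 and Krt9 had no listed peak.

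The 23 hair keratins had 21 peaks at 12 genes (52.2%, against 66.5% of all genes), with a median of 22.1 reads, and 18 of the peaks were opened (85.7%, against 50.8% of all listed peaks). In the root sheath, Krt25 and Krt72 had 1 opened peak each and Krt75 1 closed peak, 10838 bp upstream. In the shaft, 16 of 18 peaks were opened. Krt33a had 4, of which the highest (112 reads) lay 10071 bp past the start, and Krt86 had a peak of 137 reads 5884 bp past its start. Krt39 had 3, Krt31 and Krt35 had 2 each, and Krt32 and Krt84 had 1 each, all opened, while Krt83 had a closed peak (13.5 reads) 4013 bp upstream beside its opened promoter.

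Among the keratins outside these groups, Krt80 had closed and opened peaks in separate blocks. The annotation gives it several start sites, and each distance here is from the nearest of them. A pair of opened promoter peaks (171 and 29.3 reads) lay at the outermost start and the opened promoter peak of 166 reads at an internal start. Upstream of the gene, 4 closed peaks lay within 9581 bp of each other, 3485 to 12868 bp from the outermost start (9.79, 20.1, 29.8 and 48.3 reads), and an opened peak lay 20188 bp from it (17.99 reads). A closed peak lay 5994 bp past the internal start (41.5 reads), and 5 opened peaks lay 26000 to 34887 bp past it, up to 182 reads. All 14 lie within the antisense transcript Gm35853. Krt42, the type I gene at the other end of the chromosome 11 cluster, had 4 opened peaks 12912 to 20530 bp upstream, within the antisense transcript Gm14206, the highest with 240 reads (chr11:100286948-100287420). Its closed peak, the only one on chromosome 11, had 99.3 reads and lay 8192 bp upstream. Krt79, Krt24 and Krt88 had 2, 1 and 1 opened peaks, the last with 125 reads, and Krt222, Krt90 and Krt77 had none.

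The type I and type II genes of a pair lie on different chromosomes, save for Krt8 and Krt18, and were compared by their peaks. Krt8 and Krt18, and Krt7 and Krt19, had opened promoters on both sides. In the other pairs at most 1 side had one. Krt5 (1 opened, 2 closed) was beside Krt14 (none), Krt1 (none) beside Krt10 (1 opened), Krt6a (3 opened) beside Krt16 (none), and Krt4 (1 opened) beside Krt13 (2 opened).

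The opened share was taken for each cluster and for the DNA around it. On chromosome 11, 42 of 43 keratin peaks were opened (97.7%, 87.9 to 99.6%), with a run of 38 opened peaks in a row. On chromosome 15, 47 of 61 were opened (77.0%, 65.1 to 85.8%), and the longest run was 14. Of the other listed peaks in each cluster and within 2 Mb of it, 92.0% (88.9 to 94.3%, n = 387) were opened on chromosome 11 and 88.6% (84.1 to 91.9%, n = 254) on chromosome 15. The keratin share therefore had an interval that overlapped that of its surroundings on both chromosomes, with a lower value than the surroundings on chromosome 15. Outside the clusters and these flanks, the shares were 69.2% (n = 4836) on chromosome 11 and 49.2% (n = 3337) on chromosome 15. Beyond 50 Mb on chromosome 11, the part that holds the cluster and its flanks, 79.7% of the peaks not assigned to keratins were opened (n = 3911). Whether the share at the keratins is that of the genes or of their chromosomal region was not tested.

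Keratin promoters were set beside those of neighbouring genes. Opened promoters were found at 4 of 27 keratin genes on chromosome 11 (14.8%), where 105 of 160 other protein-coding genes within 2 Mb, without Krtap genes, had one (65.6%). On chromosome 15, 6 of 26 keratin genes (23.1%) and 54 of 104 neighbours (51.9%) had one. Closed promoters were found at none of the keratins, none of the chromosome 11 neighbours and 5 of the chromosome 15 neighbours. The Krtap genes, which code for matrix proteins of hair, had 12 peaks at 8 of 57 genes, where 66.5% of all protein-coding genes had a peak, with 8 opened and 4 closed, where 50.8% of all listed peaks were opened.

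**Figure D3:**
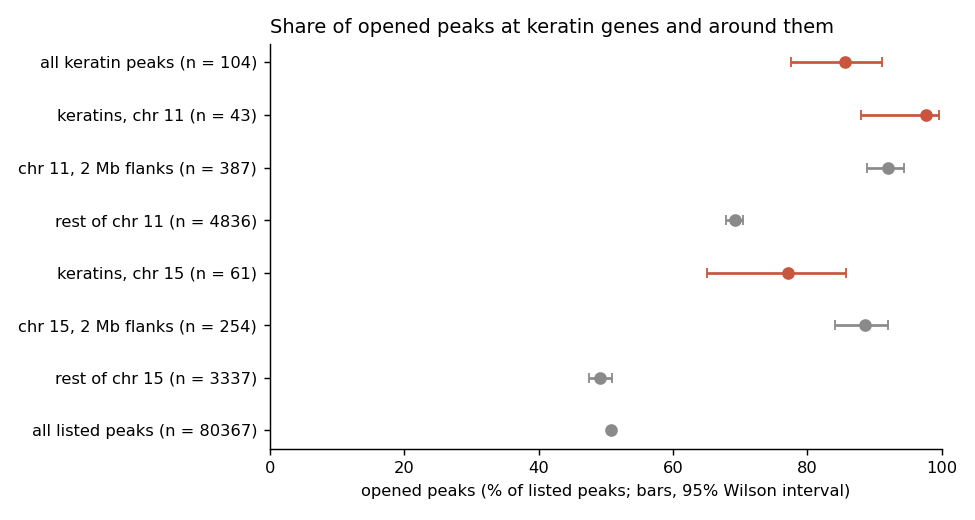
Share of opened peaks among listed peaks (%, points) with 95% Wilson intervals (bars) for the keratin peaks in red and for their surroundings in grey. The keratins lie at 85.6% against 50.8% for all listed peaks, the 2 Mb flanks lie at 92.0% and 88.6%, and the rest of each chromosome, outside cluster and flanks, at 69.2% and 49.2%.

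The median distance to the start was 7234 bp for opened keratin peaks, against 17457.5 bp for all opened peaks, and 8165 bp for closed keratin peaks, against 42431 bp for all closed peaks. The starts lie close together in the clusters, which limits how far from one a peak there can be, so these distances are not a trait of the peaks. Between 1 and 10 kb from the start, 35 of 47 keratin peaks were opened (74.5%, against 58.8% of all listed peaks), and over 10 kb from it 40 of 43 were (93.0%, against 44.4%). The other listed peaks within 2 Mb of the clusters, at any distance from a start, were opened in 92.0% (chromosome 11) and 88.6% (chromosome 15). By position, 52 of the 104 were intergenic, 32 in introns, 18 within 1 kb of a start of any type of gene and 2 in exons. The 15 closed peaks lay 1132 to 12868 bp from the nearest keratin start, and 1 of them, assigned to Krt7, was within 1 kb of the start of a non-coding gene.

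Opened keratin peaks had a median of 47.9 reads (6.08 to 569), against 40.7 for all opened peaks, and closed keratin peaks 34.9 (9.79 to 128), against 25.8 for all closed peaks. At least 100 reads were reached by 28.1% of opened keratin peaks and 25.5% of all opened peaks. Median widths were 283 bp for opened keratin peaks and 300 bp for all opened peaks. These are means over both groups and do not give the level in either.

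**Figure D4:**
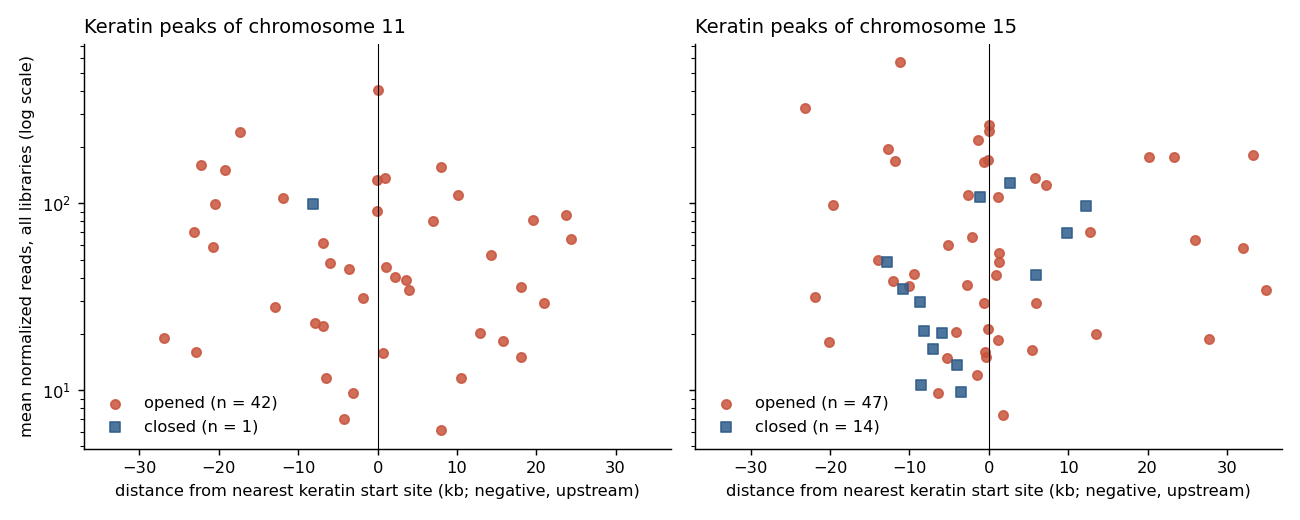
Mean normalized reads over all libraries (log scale) of each keratin peak against its distance from the nearest keratin start (kb, negative upstream), for chromosome 11 (left) and chromosome 15 (right), with opened peaks as red circles and closed peaks as blue squares. The highest peaks, of 569 reads on chromosome 15 and 403 on chromosome 11, are opened, and no closed peak lies within 1 kb of a start.

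The motif strings of the opened keratin peaks were those of opened peaks in general for most families. TEAD strings, of the Hippo pathway's DNA-binding factors, were found in the central 200 bases of 17 of 89 (19.1%, 12.3 to 28.5%), against 18.1% of all opened peaks. NKX2 (21.3% against 18.9%), FOX (8.99% against 6.84%), KLF (16.9% against 12.3%), TFAP2 (13.5% against 10.8%), CEBP (11.2% against 12.4%) and GRHL (2.25% against 3.46%) had intervals that held the value of all opened peaks. AP-1 strings were in 18 (20.2%, 13.2 to 29.7%), against 10.6%, and RBPJ strings, of the DNA-binding partner of Notch, in 30 (33.7%, 24.7 to 44.0%), against 20.7%. NFI strings were in 4 (4.49%, 1.76 to 10.99%), against 1.57%. Of the 10 families, AP-1, RBPJ and NFI had intervals above the value of all opened peaks, without a test and with no adjustment for the number of families. Over whole peaks AP-1 alone did (25.8%, 17.9 to 35.8%, against 15.1%), while the intervals of RBPJ (26.8 to 46.3%, against 30.6%) and NFI (1.76 to 10.99%, against 2.25%) held the value of all opened peaks. The RBPJ string is short, and opened keratin peaks had a median GC content of 53.5%, against 50.75% for all opened peaks, which was not taken into account.

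The window is wider than the peak at 22 of the 89 opened keratin peaks and at 28.2% of all opened peaks. Cut at the ends of the peaks, it held AP-1 strings in 17 peaks (19.1%, 12.3 to 28.5%, against 10.1% of all opened peaks) and RBPJ strings in 27 (30.3%, 21.8 to 40.5%, against 18.96%). This cut was chosen after seeing the data. These AP-1 strings were at 9 genes (Krt8, Krt18, Krt19, Krt12, Krt23, Krt42, Krt78, Krt80 and Krt86) and the RBPJ strings at 15. AP-1 and TEAD strings occurred together in 4 of the 89 opened keratin peaks, and in 2.17% of all opened peaks. The printed Krt8 far upstream and Krt19 upstream peaks are among the 4. In the 15 closed peaks, KLF strings were in 6 (40.0%, 19.8 to 64.3%), against 7.40% of all closed peaks (6 and 6.81% with the cut). The median GC content of the closed keratin peaks was 55.5%, against 48.5% for all closed peaks, which was not taken into account. The closed peaks had AP-1 strings in 3, against 26.4% of all closed peaks. FOX and GRHL strings were in none of the 15 (0 to 20.4%), against 9.70% and 1.603% of all closed peaks. In the 250 bases before the RefSeq start, which were at hand for 36 of the 53 keratins, RBPJ strings were in 8 promoters (22.2%) and in 21.5% of 27025 promoters of all genes, and AP-1 strings in 1 (2.78%) and 6.87%. TFAP2 strings, printed for Krt7, were in 13.6% of all promoters, NFI strings in 0.651% and CEBP strings, printed for Krt23, in 9.55%.

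**Figure D5:**
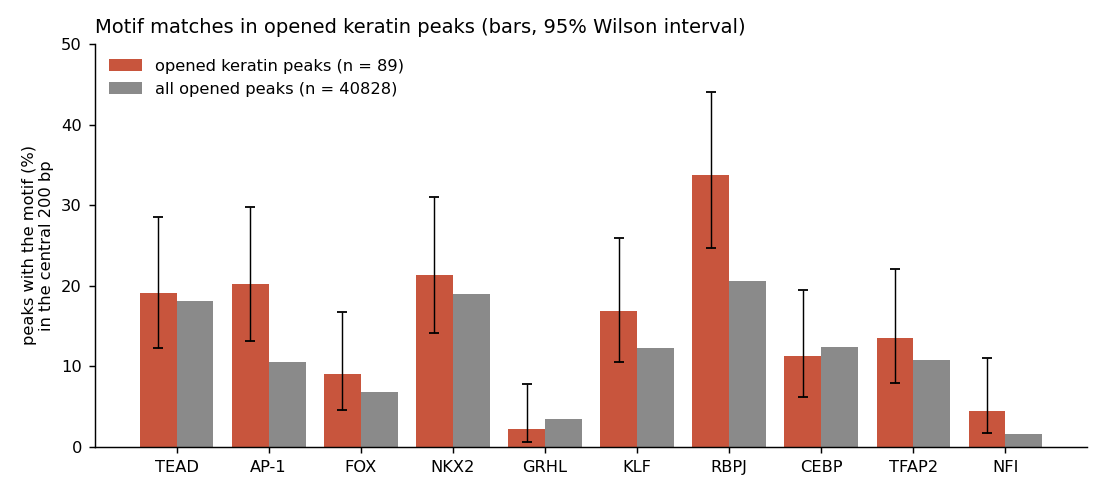
Share of peaks (%) with a motif string in the 200 bases around their centre, a window that runs past the ends of narrower peaks, for the 89 opened keratin peaks (red, with 95% Wilson intervals) and all 40828 opened peaks (grey). RBPJ (33.7% against 20.7%) and AP-1 (20.2% against 10.6%) show the widest gaps, and TEAD is at 19.1% against 18.1%.

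Genes of other intermediate filaments, of desmosomes and plakins and of epithelial transcription factors had mixed directions. Of 16 other intermediate filament genes, 13 had a listed peak, with 23 opened and 34 closed (40.4% opened). Lmnb1 of the nuclear lamina had 10 opened and 1 closed, while Synm, a filament-linking protein, had 2 and 8, and the lens filament genes Bfsp2 and Bfsp1 had 1 and 7 and 2 and 5. The 21 genes of desmosomes and plakins, which anchor keratin filaments, all had a peak, with 73 opened and 70 closed (51.0%). Plec, a linker of keratins to hemidesmosomes, had 15 opened and 1 closed, Ppl 6 and 3, Dst 11 and 13, and Pkp4 7 and 18. All 16 transcription factors of epithelial genes had a peak, with 161 opened and 123 closed (56.7%). Those with the most peaks were Foxa2 (19 opened, 26 closed), Klf5 (14 and 23), Sox2 (18 and 15) and Grhl2 (25 and 3). Opened promoters were found at 2 of the 16 filament, 8 of the 21 desmosome and 8 of the 16 factor genes, where 28.7% of all protein-coding genes had an opened promoter and 66.5% a listed peak.

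Markers were set beside these counts as a check of the sort. Hes1, the reporter gene, had 26 opened and 11 closed peaks and an opened promoter. Of 8 NE markers, 7 had a closed promoter (8.64% of all genes) and none an opened one (28.7% of all genes), with 11 opened and 60 closed peaks (15.5% opened, against 50.8% of all listed peaks). Insm1 had 28 closed and no opened peaks, Ncam1 3 opened and 9 closed, and Chga 8 opened and 6 closed. All 4 club cell markers had an opened promoter, with 22 opened and 4 closed peaks (84.6%). The leukocyte list had 14 opened and 5 closed peaks (73.7% opened) at 4 genes, of which Ptprc had 11 and 5 and Cd68 an opened promoter. The fibroblast list had 10 and 13 at 4 of 5, the endothelial list 12 and 39 at 4 of 4, and the mesothelial list, of a keratin-expressing lining, 1 and 4 at 3 of 4. The basal cell list had 12 opened and 12 closed peaks, of which Trp63 held 9 and 9. The sort used stains for CD45, CD31 and TER-119, which mark leukocytes, endothelium and erythroid cells, and for CD24, used for positive selection. The fibroblast genes went both ways, with Col1a1 at 7 opened and no closed peaks and an opened promoter, Pdgfra at no opened and 5 closed, Dcn at 3 and 6, and Col1a2 at 2 closed with a closed promoter. The part of such cells in the keratin counts was not tested.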

How the data were processed

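ATAC-seq libraries of GFPhigh and GFPneg SCLC cells were grouped by the Hes1-GFP status in the labels. The authors trimmed reads, aligned them to mm10 with Bowtie2 (2.3.4.1 in the submitters' processing notes), removed duplicates, called narrow peaks with MACS2, merged them over samples, counted reads per peak and compared groups with DESeq2 (1.28.1), with limits of 0.001 on the adjusted p and of 1 on the absolute log2 fold change. How lanes and pairs entered is not given in the sources used here. The deposited signal per peak is the authors' mean of normalized reads over all libraries. The 5 comparison columns (log2 fold change, its standard error, Wald statistic, p and adjusted p) were not used.

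Peaks were assigned in Python 3.11.15 (numpy 2.4.6, pandas 2.3.3, scipy 1.17.1, matplotlib 3.10.9) to the nearest protein-coding start of the basic GENCODE annotation of mm10, with positions 1-based. Promoters lie within 1 kb. The assignment to the nearest start and its signed distance were tested on simulated data, and the motif search was not. Genes named are all keratins with a peak, simple and basal keratins without one, and at most 4 genes of each other list, by number of peaks. Promoter peaks and the 6 highest peaks were named, and genes and peaks outside this rule were picked with their values known. The members and lists were chosen with earlier results of these data known. Alternatives were other assignments, peak merging, read minimums, promoter distances, whole-peak motifs, and leaving out promoters, a cluster or simple keratins.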

Additional observations from a re-analysis of the deposited data

How the results depend on the processing

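The opened share of keratin peaks stayed above that of all listed peaks under each of 10 alternatives, from 77.0 to 97.7%, but not above that of the 2 Mb around the chromosome 15 cluster, 88.6%, for the keratins of that chromosome. It moved beyond its interval when 1 cluster was taken alone, to 97.7% on chromosome 11 and 77.0% on chromosome 15. Leaving out the simple epithelial keratins, an alternative chosen after seeing the data, gave 84.5%. Genes with a peak numbered 28 to 37 instead of 32, and genes with an opened promoter 8 within 500 bp and 15 within 3 kb instead of 10. In whole peaks the RBPJ share was 36.0% (all opened peaks, 30.6%) and the AP-1 share 25.8% (15.1%), where the RBPJ and NFI intervals held the value of all opened peaks and the AP-1 interval did not. Keratin genes with a closed promoter numbered 2 within 3 kb, an alternative also chosen after seeing the data, instead of 0 within 1 kb. No paired analysis was possible because the files hold no values per library, and leaving out replicates was not run for the same reason. The shares refer to peaks past the authors' limits and not to every accessible site.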
